A study of Rattus norvegicus with 12 samples.

Results

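The mature miRNAs described here come from paired clusters: miR-23a with miR-27a and miR-24-2, called the a-cluster below, and miR-23b with miR-27b and miR-24-1, called the b-cluster. Members were the rows of the deposited count lists with the stems miR-23a, miR-23b, miR-24, miR-27a and miR-27b: the 5 guide arms rno-miR-23a-3p, rno-miR-23b-3p, rno-miR-24-3p, rno-miR-27a-3p and rno-miR-27b-3p, and the 4 opposite arms rno-miR-24-1-5p, rno-miR-24-2-5p, rno-miR-27a-5p and rno-miR-27b-5p, written below without the species prefix. They make 9 of the 753 mature miRNAs listed. Small RNA was sequenced from the right hippocampus of adult male Sprague Dawley rats, aged P70 to P80, that were euthanized 3 h after injection of 4 g/kg ethanol or of vehicle. The paper names the dissected tissue as dorsal hippocampus and gives the injections as intraperitoneal, with saline as the diluent. Libraries of 4 vehicle rats and 8 ethanol rats were analysed, 1 per animal. The labels and the paper give 8 rats for each group, and the remaining 4 vehicle rats were not analysed here, so that every comparison of ethanol with vehicle rests on 4 of 8 vehicle rats. Each rat is called by its group and the number in its label. No litter was given in the labels, and the p-values measure the spread between these rats. The paper reports housing in pairs and a limit on pups of a litter in each condition. Rats may therefore share a cage or litter, and the tests treat them as independent.

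A miRNA hairpin is cut into a 5p arm and a 3p arm. The guide arm enters an Argonaute protein and pairs with messenger RNAs mainly through its seed, bases 2 to 8, while most copies of the other arm are degraded. The vertebrate genome carries the miR-23, miR-27 and miR-24 hairpins as paralogous clusters, each transcribed as a single primary RNA, and both clusters yield the same miR-24-3p. Members of these clusters are known for roles in blood vessel growth and endothelial cells. miR-27 represses the adipogenic receptor Pparg, miR-23 represses glutaminase, and miR-24 represses genes of the cell cycle and DNA repair.

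The mature sequences are shown because the arms that the counts must separate are nearly identical. They are RefSeq's, for assembly GRCr8, written 5′ to 3′ with the seed in capitals.
miR-27b-3p: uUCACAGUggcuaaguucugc
miR-27a-3p: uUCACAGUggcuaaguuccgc
miR-23b-3p: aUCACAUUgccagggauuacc
miR-23a-3p: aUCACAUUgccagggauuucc
miR-24-3p: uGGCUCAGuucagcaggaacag
miR-24-2-5p: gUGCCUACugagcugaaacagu
miR-24-1-5p: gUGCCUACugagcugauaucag
miR-27b-5p: aGAGCUUAgcugauuggugaacag
miR-27a-5p: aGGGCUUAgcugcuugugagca

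Counted from the 5′ end, miR-23a-3p and miR-23b-3p differed only by U19A, and miR-27a-3p and miR-27b-3p only by C19U, so that the first 18 of 21 bases were shared within each pair. The seeds of miR-23 and miR-27 differed from each other by U7G alone. The 5p arms of miR-24-2 and miR-24-1 shared their first 16 bases and their seed, whereas those of miR-27a and miR-27b differed at 8 of 22 positions, with G3A inside the seed. Among the 688 listed miRNAs with a RefSeq sequence, no miRNA outside the members carried any of these seeds at bases 2 to 8. The brain miRNA miR-128-3p holds the miR-27 seed letters at bases 1 to 7, shifted by 1 base, as shown in capitals.
miR-128-3p: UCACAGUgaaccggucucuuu

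In GRCr8 the hairpins of the a-cluster lie on the minus strand of chromosome 19, with Mir23a at chr19:40859769-40859843, Mir27a at chr19:40859603-40859689 and Mir24-2 at chr19:40859455-40859562, a span of 389 bases. No annotated gene other than the miRNAs covers them, and the nearest ones are Zswim4 and LOC102548759. The b-cluster lies on the minus strand of chromosome 17, with Mir23b at chr17:1819386-1819482, Mir27b at chr17:1819147-1819243 and Mir24-1 at chr17:1818669-1818736. Its 814 bases fall inside the gene Aopep, an aminopeptidase. The submitters' notes name the older build rn5, the count lists hold no coordinates, and no position was converted.

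Library totals ranged from 2243413 to 4917928 counts in vehicle rats and from 1960704 to 3598771 in ethanol rats, and 3 counts, taken as the smallest detectable amount, equalled 0.610 to 1.53 CPM, the usual unit of counts relative to library size. All CPM values use library totals scaled by TMM factors, which bring the bulk of miRNAs in each library to a common level. The neuronal miRNA miR-124-3p, given as a check on the tissue label, stood between 2542 and 3485 CPM in all 12 libraries. Libraries differed in non-neuronal marker miRNAs: the summed choroid plexus list (miR-204-5p, miR-211-5p, miR-448-3p and miR-449a-5p) ranged from 16526 to 70924 CPM. Vehicle rats 9, 19 and 20 and ethanol rat 16 held 1147 to 1310 CPM of the muscle list (miR-133a-3p, miR-133b-3p, miR-1-3p and miR-206-3p) against 84.7 to 244 CPM in the other 8 libraries. Of this list, miR-1-3p and miR-206-3p were near 0, at no more than 9.73 and 4.85 CPM in any library. The separate row miR-1b, outside the list and named after its values were seen, was not near 0. It averaged 341 CPM in vehicle rats and 100 CPM in ethanol rats (edgeR adjusted p = 0.971).

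The members took 3.22% to 3.99% of the counts of a library. The miR-27 guides dominated: miR-27a-3p and miR-27b-3p together held 84.4% ± 0.421 (SD, n = 4) of the reads of the 5 guides in vehicle rats, miR-24-3p held 9.62% ± 0.341 and the miR-23 guides 6.03% ± 0.381. In ethanol rats these shares were 84.3% ± 1.24 (SD, n = 8), 9.68% ± 0.843 and 6.01% ± 0.513. Within vehicle rats miR-27b-3p ranked 14 of all 753 miRNAs by mean CPM, miR-27a-3p ranked 21, miR-24-3p 41, miR-23b-3p 64 and miR-23a-3p 116.

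The most abundant member was miR-27b-3p, the b-cluster guide. Its level was 21783, 21292, 22766 and 20316 CPM in vehicle rats 9, 10, 19 and 20, and ran from 18633 to 24498 CPM with a median of 22220 in ethanol rats. The vehicle values all lay inside the ethanol range, whose lowest library was ethanol rat 16 and whose highest was ethanol rat 23.

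Its a-cluster paralogue miR-27a-3p had 8910, 8949, 9318 and 8270 CPM in the vehicle rats. In ethanol rats it ranged from 7833 to 9745 CPM (median 9018), with the same libraries, rats 16 and 23, at the ends. The groups overlapped here too.

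For miR-24-3p, which reads cannot assign to either hairpin, the vehicle values were 3614, 3496, 3456 and 3285 CPM. Ethanol rats lay between 3285 and 3836 CPM (median 3545). The lowest libraries of the groups, vehicle rat 20 and ethanol rat 24, had nearly equal levels.

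The guide miR-23b-3p stood at 1626, 1841, 1825 and 1766 CPM in the vehicle rats and at 1624 to 1996 CPM (median 1827) in the ethanol rats. The a-cluster guide miR-23a-3p was lower and more uneven, at 406, 309, 445 and 458 CPM in vehicle rats 9, 10, 19 and 20 and at 309 to 517 CPM (median 376) in ethanol rats. Vehicle rat 10 and ethanol rats 15 and 23 had the least miR-23a-3p, and ethanol rats 8 and 16 the most.

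Among the 5p arms, miR-24-2-5p was the only abundant one, at 269, 243, 299 and 309 CPM in the vehicle rats and at 235 to 319 CPM (median 285) in the ethanol rats. The remaining arms were rare. miR-24-1-5p had 23 to 61 counts per library (9.30 to 15.7 CPM), miR-27b-5p had 9 to 59 (4.72 to 15.6 CPM), and miR-27a-5p had 4 to 12 (1.65 to 3.51 CPM). At such counts a single value of miR-27a-5p carries a counting error of 36.1%, larger than its observed coefficient of variation (CV) of 19.9% over the 12 libraries.

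The count lists also hold the 5p arms of miR-23a and miR-23b, which the member rule left out. miR-23a-5p had 0 reads in all 12 libraries, which allows up to 0.610 to 1.53 CPM in a library, and miR-23b-5p had at most 2. miR-3074, which RefSeq places on the opposite strand over Mir24-1, had 0 reads in 10 libraries and at most 4.

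**Figure D1:**
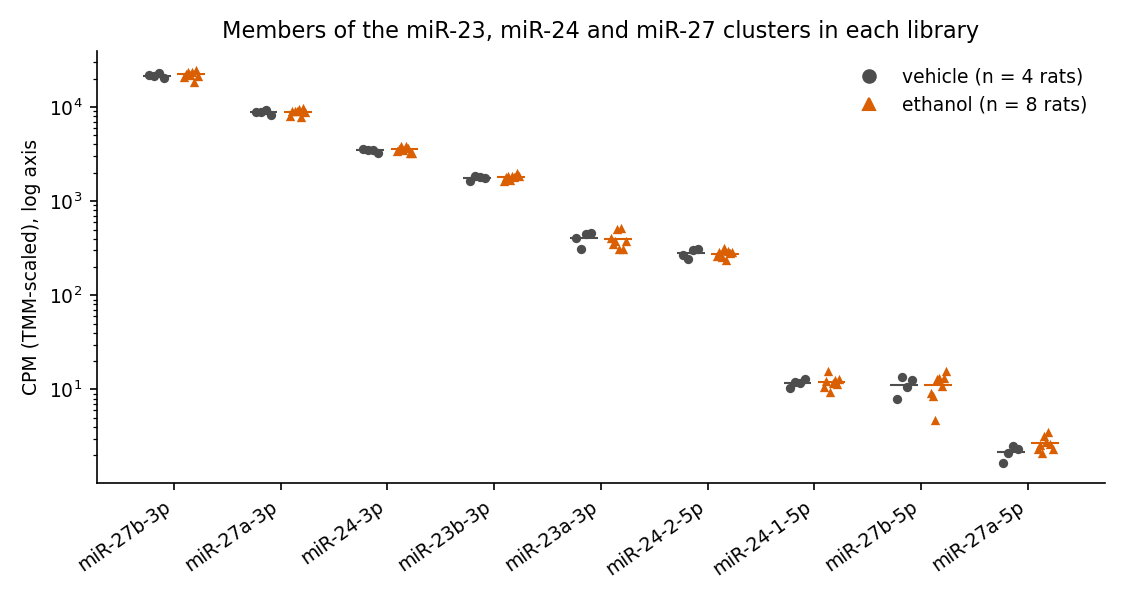
Level of each of the 9 members in CPM (log axis) in the 4 vehicle (circles) and 8 ethanol (triangles) libraries, with group means as lines. The guides run from miR-27b-3p (18633 to 24498 CPM) down to miR-23a-3p (309 to 517 CPM), miR-24-2-5p follows close behind, the other 5p arms lie at or below 15.7 CPM, and the groups overlap for all 9.

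The order of the members was nearly the same in all rats, as the plot of levels by library shows. Of the 8 neighbouring pairs in this order, 7 stood in the same order in 12 of 12 libraries. The pairs were taken from the mean levels in these same libraries, so their order is a description and carries no test. The ranges of miR-23a-3p and miR-24-2-5p touched across libraries, at 309 CPM for the lowest miR-23a-3p and 319 CPM for the highest miR-24-2-5p, although within each library miR-23a-3p was the higher. Levels of miR-24-1-5p and miR-27b-5p overlapped, with miR-24-1-5p the higher in 7 of 12 libraries.

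The abundant guides varied little between rats. Over the 12 libraries the CV was 5.46% for miR-24-3p, 5.94% for miR-23b-3p, 6.72% for miR-27a-3p and 7.29% for miR-27b-3p. The median CV of the 184 miRNAs with a mean of at least 100 CPM was 11.3%, and only 5 of these had a lower CV than miR-24-3p. miR-23a-3p was the exception among the guides, with a CV of 18.5%, higher than that of 145 of the 184 and far above the 2.85% that counting error gives at its depth. The sum of miR-23a-3p and miR-23b-3p, which does not depend on how shared reads are divided between them, had a CV of 4.30%.

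The a-cluster was then set against the b-cluster within each library, where depth cancels. The b-cluster guide exceeded its a-cluster paralogue in 12 of 12 libraries for both families. Counts of miR-27b-3p were 2.38 to 2.65 times those of miR-27a-3p (geometric mean 2.47), and counts of miR-23b-3p were 3.29 to 6.44 times those of miR-23a-3p (geometric mean 4.57). The 5p arm of miR-27 went the same way, with miR-27b-5p at 2.11 to 6.29 times miR-27a-5p (geometric mean 4.09). The 5p arm of miR-24 went the other way: the a-cluster arm miR-24-2-5p had 16.0 to 33.6 times the counts of the b-cluster arm miR-24-1-5p (geometric mean 23.0), again in 12 of 12 libraries. Each of these 4 ratios differed from 1 by the two-sided exact paired permutation test (p = 0.000488, the smallest that 12 libraries allow, adjusted p = 0.000488 over 4 ratios). Adapter ligation favours some RNA ends over others and reads of the paralogues may be divided unevenly, so that a ratio between different arms holds these biases as well. Their part was not tested.

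The ratios differed in how constant they were. The log2 ratio of miR-27a-3p to miR-27b-3p had an SD of 0.048 over the 12 libraries, against 0.32 for miR-23a-3p to miR-23b-3p, where counting error would give 0.011 and 0.048. As a linear ratio, miR-23a-3p to miR-23b-3p was 0.250, 0.168, 0.244 and 0.259 in vehicle rats 9, 10, 19 and 20, and ran from 0.155 to 0.304 with a median of 0.204 in ethanol rats. Vehicle rat 10 stood apart from the other vehicle rats, and the ethanol rats spread over the whole range. For miR-24-2-5p to miR-24-1-5p the SD of 0.26 was close to the 0.25 that counting error gives, and for miR-27a-5p to miR-27b-5p the SD of 0.44 was below the counting value of 0.62.

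**Figure D2:**
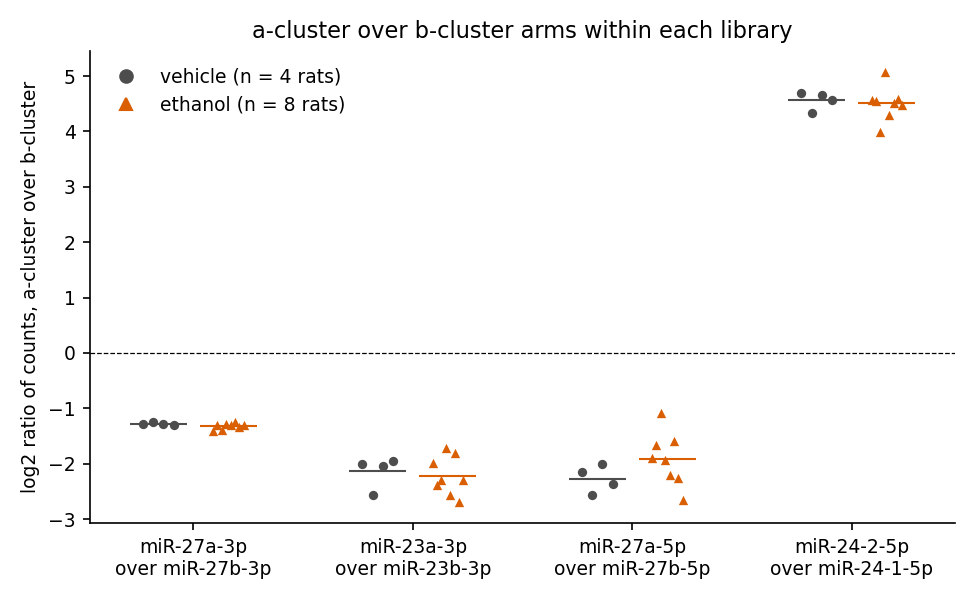
Log2 ratio of counts, a-cluster arm over b-cluster arm, in each of the 4 vehicle (circles) and 8 ethanol (triangles) libraries, with group means as lines and equal counts at the dashed line. Ratios of miR-27a-3p to miR-27b-3p lie in a narrow band near -1.31, those of miR-23a-3p to miR-23b-3p and of the miR-27 5p arms spread below 0, and those of miR-24-2-5p to miR-24-1-5p lie above 0 in all 12 libraries.

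Ethanol was compared with vehicle to ask whether acute ethanol altered these miRNAs. All 9 members were among the 420 miRNAs retained after removal of rarely read ones, and the quasi-likelihood test of edgeR gave 0 of the 9 an adjusted p below 0.05, where 0.00% of the retained miRNAs were called. At an unadjusted p under 0.05 the count was also 0 of 9, beside 4.05% of the retained miRNAs. DESeq2 gave 0 of the 9 members an adjusted p under 0.05, beside 0.238% of the retained miRNAs, and 0 of 9 an unadjusted p under 0.05, beside 3.81%. Its 1 call was miR-133b-3p of the muscle list, named here after its value was seen. The groups overlapped for all 9 members, beside 0.238% of the retained miRNAs whose groups did not overlap. The p-values rest on 4 vehicle rats and share those rats across all members.

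The changes were small and their intervals narrow for the guides. The log2 fold change of miR-27b-3p was 0.04 with a 95% interval of -0.11 to 0.20 (edgeR adjusted p = 0.971), that of miR-27a-3p was 0.003 with an interval of -0.15 to 0.15 (adjusted p = 1.00), and that of miR-24-3p was 0.04 with an interval of -0.09 to 0.17 (adjusted p = 0.971). For miR-23b-3p it was 0.04, between -0.10 and 0.17 (adjusted p = 0.971). On the linear scale the upper and lower bounds for these 4 guides lay between 0.904-fold and 1.15-fold. The interval of miR-23a-3p was wider, from -0.38 to 0.30 around -0.04 (adjusted p = 0.997). With the mean log2 CPM of the muscle list as a covariate the log2 fold change of miR-23a-3p was 0.27 (edgeR adjusted p = 0.543). In that mean the near-absent miR-1-3p and miR-206-3p weigh as much as miR-133a-3p and miR-133b-3p. The log2 fold change was 0.36 without the 4 libraries high in the summed list. That leaves 1 vehicle rat, assumed to vary like the rest. In those 4 libraries miR-23a-3p ran from 406 to 517 CPM, and in the other 8 from 309 to 509 CPM (median 362). The part of the muscle list in this was not tested further.

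For the 5p arms the log2 fold change was -0.01 for miR-24-2-5p (95% interval -0.22 to 0.19), 0.04 for miR-24-1-5p (-0.47 to 0.54), 0.02 for miR-27b-5p (-0.50 to 0.54) and 0.29 for miR-27a-5p (-0.38 to 0.95), with an edgeR adjusted p of at least 0.971 for each. The intervals of the 3 rare arms together spanned 0.707-fold to 1.93-fold, and differences inside them were not detectable at this depth. Of the 9 members, 7 had a log2 fold change above 0 and 2 below, with a median of 0.04, beside a median of -0.02 over the 420 retained miRNAs, of which 54.0% were below 0. With library totals alone as the scaling, miR-23b-3p, miR-27a-3p and miR-27b-5p turned to -0.0019, -0.033 and -0.021.

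**Figure D3:**
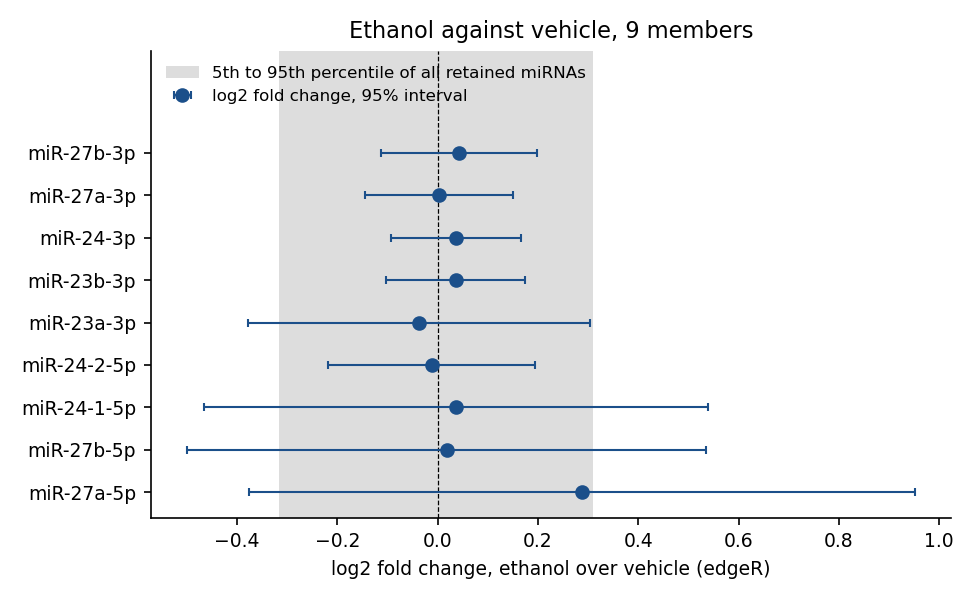
Log2 fold change of each member, ethanol over vehicle, from edgeR's quasi-likelihood fit (points) with its 95% interval (bars). The shaded band runs from -0.32 to 0.31, the 5th to 95th percentile over the 420 retained miRNAs; all 9 intervals cross 0 and the widest belong to the rarely read 5p arms.

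Sums over the paralogues, which stay the same however shared reads were divided, gave the same picture. The miR-27 guides summed to 30401 ± 1442 CPM in the vehicle group (SD, n = 4) and to 31052 ± 2493 CPM in the ethanol group (SD, n = 8), with an exact permutation p of 0.675 and an adjusted p of 0.900 over 4 sums. The miR-23 guides summed to 2169 ± 104 and 2203 ± 94.3 CPM (exact permutation p = 0.582, adjusted p = 0.900). Sums by cluster, in contrast, do depend on how shared reads were divided. Summed in this way, miR-23a-3p and miR-27a-3p made 9266 ± 424 and 9273 ± 642 CPM (exact permutation p = 0.994), and miR-23b-3p and miR-27b-3p made 23304 ± 1031 and 23982 ± 1910 CPM (exact permutation p = 0.566).

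The balance between the clusters did not differ between groups beyond the spread between rats either. The mean log2 ratio of miR-23a-3p to miR-23b-3p was -2.14 ± 0.29 in the vehicle group (SD, n = 4) and -2.22 ± 0.35 in the ethanol group (SD, n = 8), with an exact permutation p of 0.675. That of miR-27a-3p to miR-27b-3p was -1.28 ± 0.021 and -1.32 ± 0.054 (exact permutation p = 0.200). For the 5p arms of miR-27 and miR-24 the exact permutation p was 0.188 and 0.739, and the lowest adjusted p over the 4 ratios was 0.400. No choice between the arms of a hairpin was seen to shift: the log2 ratio of miR-27a-3p to miR-27a-5p was 11.9 ± 0.24 in vehicle rats and 11.6 ± 0.27 in ethanol rats (exact permutation p = 0.077, adjusted p = 0.230 over 3 ratios), that of miR-27b-3p to miR-27b-5p gave p = 0.802, and that of miR-24-3p to both its 5p arms gave p = 0.727 by the same exact permutation test. As geometric means over all libraries, the guide exceeded the other arm 3352-fold for miR-27a and 2029-fold for miR-27b, but only 12.1-fold for miR-24.

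Levels of the 5 guides were compared with each other across the 12 libraries, in 10 pairs. Only miR-27a-3p and miR-27b-3p, the paralogues on different chromosomes that differ by 1 base, varied together past the threshold (Pearson r = 0.89, permutation p = 5e-05, adjusted p = 0.0005; Spearman rho = 0.92, permutation p = 6e-05, adjusted p = 0.0006). Without the 2 libraries farthest from the median of miR-27a-3p, ethanol rats 3 and 16, r was 0.89, and within the 8 ethanol rats it was 0.90. Neither miRNA had a whole-number count in any of the 12 libraries, as happens when a read matching both is divided between them, and the part of this sharing in the correlation was not tested.

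Guides of a single cluster did not rise together past the adjusted threshold. The opposite arms were not part of these pairs. For the b-cluster guides miR-23b-3p and miR-27b-3p, r was 0.40 (permutation p = 0.194, adjusted p = 0.323) and rho 0.62 (permutation p = 0.0375, adjusted p = 0.121). For the a-cluster guides miR-23a-3p and miR-27a-3p, r was negative, at -0.58 (permutation p = 0.0474, adjusted p = 0.158; rho = -0.45, permutation p = 0.141, adjusted p = 0.235). With CPM from library totals alone this r was -0.82 (permutation adjusted p = 0.0025), that of miR-23a-3p with miR-27b-3p moved from -0.61 to -0.81 (permutation adjusted p = 0.00070), and 3 of the 10 pairs passed the adjusted threshold. The miR-23 paralogues, which also differ by 1 base and also had fractional counts in all 12 libraries, ran against each other (r = -0.52, permutation p = 0.0805, adjusted p = 0.201; rho = -0.66, permutation p = 0.021, adjusted p = 0.105). miR-24-3p followed none of the other 4 guides, with r between -0.098 and 0.14, a permutation p of at least 0.660 for r and rho between -0.13 and 0.27, with a permutation p of at least 0.405.

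**Figure D4:**
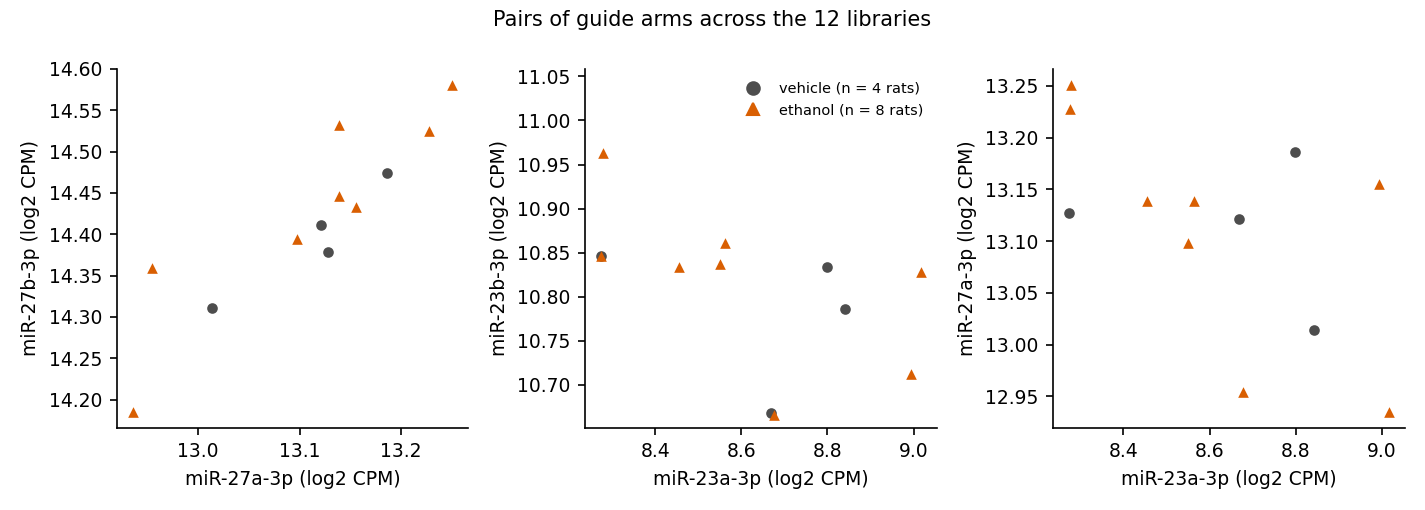
Log2 CPM of 3 pairs of guides in the 4 vehicle (circles) and 8 ethanol (triangles) libraries: miR-27a-3p with miR-27b-3p (left, r = 0.89), miR-23a-3p with miR-23b-3p (middle, r = -0.52) and miR-23a-3p with miR-27a-3p (right, r = -0.58). The axes differ in span and do not start at 0; miR-23a-3p covers the widest span of the 4 guides.

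The members were also set beside lists of miRNAs that mark cell types of brain tissue, in 54 relations of 9 members with 6 lists, chosen after the values were seen. The muscle list was left out of these relations. In whole tissue, more cells of a type and more of the RNA per cell cannot be told apart. Of these, 2 passed an adjusted Pearson p under 0.05 and 3 an adjusted Spearman p. The level of miR-27b-3p rose with the summed oligodendrocyte list (miR-338-3p, miR-219a-5p and miR-219a-2-3p, miRNAs of oligodendrocyte maturation), with r = 0.85 (permutation adjusted p = 0.013) and rho = 0.93 (permutation adjusted p = 0.00216). The list ranged from 9332 to 17658 CPM in vehicle rats and from 9827 to 19011 in ethanol rats, and most of it was miR-338-3p, at a median of 12133 CPM. Without vehicle rat 20 and ethanol rat 16, the farthest from the median, r was 0.81, and within the 8 ethanol rats 0.91. For miR-27a-3p the same list gave r = 0.75 (permutation adjusted p = 0.0717) and rho = 0.87 (permutation adjusted p = 0.00702), and r was 0.60 without those 2 rats. Since the miR-27 guides varied together, their relations with this list are not separate results. Both miR-27 guides ran against the erythroid list, with r of -0.73 each (permutation adjusted p = 0.0717 each). The rho was -0.75 for miR-27a-3p, -0.76 for miR-27b-3p and also -0.75 for miR-23b-3p (permutation adjusted p = 0.0620 each). For miR-23b-3p r was -0.58 (permutation adjusted p = 0.256), while miR-23a-3p went the other way, with r = 0.66 (permutation adjusted p = 0.159). None of these erythroid relations passed the adjusted threshold.

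The a-cluster 5p arm miR-24-2-5p rose with the summed choroid plexus list, with r = 0.81 (permutation adjusted p = 0.0327) and rho = 0.86 (permutation adjusted p = 0.0121). Without ethanol rats 3 and 15, whose choroid plexus sums were the lowest, r was 0.77, and within the 8 ethanol rats 0.82. For the a-cluster guide miR-23a-3p the same list gave r = 0.66 (permutation adjusted p = 0.159) and rho = 0.72 (permutation adjusted p = 0.0766). Without those 2 rats the r of miR-23a-3p was 0.89, and within the 8 ethanol rats 0.62. The list did not differ between groups beyond the spread between rats, at 29002 to 50295 CPM in vehicle rats and 16526 to 70924 in ethanol rats (exact permutation p = 0.673). Among 411 retained miRNAs outside the members, those whose levels followed miR-24-2-5p most closely over the 12 libraries were miR-155-5p, miR-152-5p, miR-204-3p, miR-1298 and miR-448-3p, the last of which is in the choroid plexus list, with r from 0.90 down to 0.82, given as a description of the highest of 411 values.

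**Figure D5:**
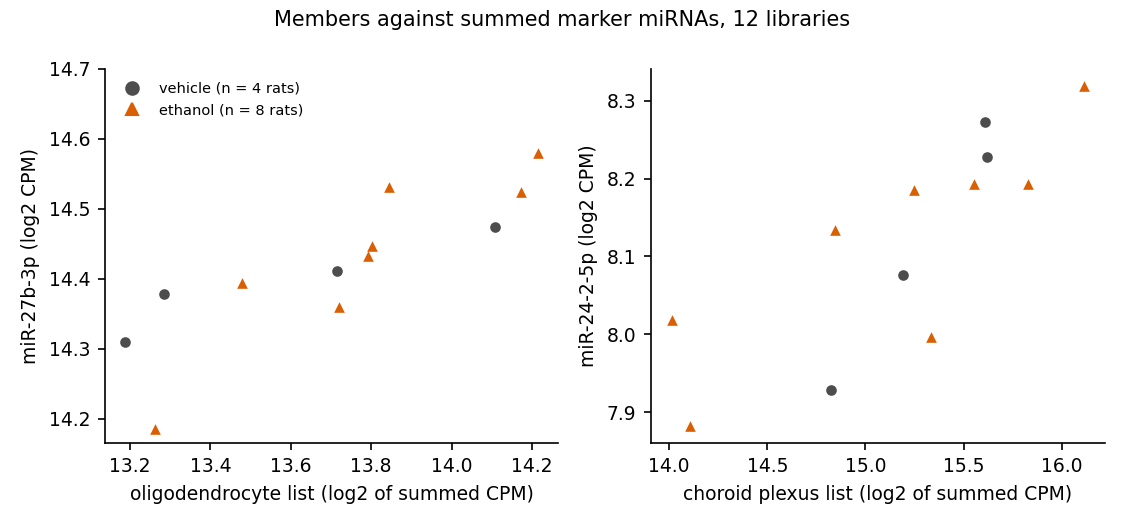
Log2 CPM of miR-27b-3p against the log2 summed CPM of the oligodendrocyte list (left) and of miR-24-2-5p against the choroid plexus list (right), for the 4 vehicle (circles) and 8 ethanol (triangles) libraries. Both rise from left to right, with r of 0.85 and 0.81, circles and triangles are mixed along each trend, and the axes do not start at 0.

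The endothelial and mural list (miR-126a-3p, miR-126a-5p, miR-143-3p and miR-145-5p) was included for the known vascular role of these clusters, with earlier results of these data known. It summed to 38686 to 48381 CPM in vehicle rats and to 32603 to 67951 in ethanol rats (exact permutation p = 0.400). None of its 4 members passed the adjusted threshold in edgeR, and no relation of a cluster member with this list did. The summed lists of neurons, oligodendrocytes, myeloid and erythroid cells differed between groups by no more than the spread between rats. The exact permutation p was 0.265 for neurons, 0.341 for oligodendrocytes, 0.838 for myeloid cells and 0.620 for erythroid cells. The muscle list averaged 960 ± 575 CPM (SD) in vehicle rats and 281 ± 373 CPM in ethanol rats (exact permutation p = 0.067). Its high libraries were vehicle rats 9, 19 and 20 and ethanol rat 16. This test therefore does not show that muscle content was balanced between groups.

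Averaged as z-scores, the 5 guides were followed most closely over the 12 libraries by miR-340-3p (r = 0.87), miR-151-5p (0.82), miR-151-3p (0.79), miR-338-3p (0.74) and miR-16-5p (0.71), the highest of 411 values. Taken alone, miR-24-3p was most like miR-99b-5p (r = 0.88) and miR-100-5p (0.87), and miR-23a-3p was most like miR-505-3p (0.88) and miR-378a-3p (0.86). For miR-27b-3p the closest was miR-181b-5p (r = 0.864), outside the oligodendrocyte list. It was followed by miR-338-3p (0.858), miR-6325 (0.837), miR-301a-3p (0.819) and miR-219a-5p (0.791). miR-128-3p, which holds the miR-27 seed letters shifted by 1 base, had 7590 ± 727 CPM in the vehicle group (SD, n = 4) and 7293 ± 1015 CPM in the ethanol group (SD, n = 8), with a log2 fold change of -0.06 (95% interval -0.29 to 0.17, edgeR adjusted p = 0.971).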

How the data were processed

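The authors deposited a list for each rat with the expected count (an estimated count that need not be whole) of every mature miRNA, unscaled and before rarely read miRNAs were removed. The submitters' notes name cutadapt, Partek and the build rn5. The counter and the miRNA annotation are not given in the sources used here. Libraries came from 1 µg of total RNA, sized at 20 to 30 nt and read for 37 cycles in sets of 8. The set of each library was not given, so sequencing sets could not be compared.

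Expected counts were rounded. Removal of miRNAs that had under 10 reads in at least 10 libraries kept at least 99.987% of each library. Ethanol was compared with vehicle by edgeR 4.0.16's quasi-likelihood test (R 4.3.3) with TMM factors and Benjamini-Hochberg adjustment over 420 miRNAs, and checked on simulated data. Intervals at 95% were derived from the p of this test. The log2 CPM used a prior count of 2 and log2 ratios a prior count of 0.5. Sums and ratios between groups were compared by two-sided exact permutation over all 495 splits, whose smallest p is 0.00202, and correlations by 100000 permutations. Intervals and detection floors from counts cover counting error only, since amplified reads are not independent molecules. The study's own scaling by group medians was replaced by a count model, which fits these values. DESeq2 1.42.0 and limma 3.58.1 served as alternatives. Named miRNAs were the 9 members, the 5 most like the guides, seed relatives with miR-128-3p, and marker lists. miR-486 of the erythroid list was not found by that name. miR-3074, miR-1b and the miRNAs most like single members were named after their values were seen. The members, lists and tests were chosen with earlier results of these data known.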

Additional observations from a re-analysis of the deposited data

Results flagged for a closer look

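In each group, 20 measures (the 9 members, the 7 ratios between arms and the 4 sums) were examined for a rat far from the rest. Of 40 groups examined, 2 held such a rat, and chance would give about 2. Both were vehicle rat 10. Its log2 ratio of miR-23a-3p to miR-23b-3p was -2.57, while vehicle rats 9, 19 and 20 lay at -2.04 to -1.95, so that the gap to the nearest rat made up 0.857 of the whole range. Its log2 ratio of miR-27a-3p to miR-27b-3p was -1.25, against -1.30 to -1.29, with a gap of 0.830 of the range. Vehicle rat 10 was also the vehicle rat with the least of the summed muscle list, at 103 CPM against 1147 to 1310. Without it the log2 difference in the ratio of miR-23a-3p to miR-23b-3p, ethanol minus vehicle, was -0.22 in place of -0.08.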

How the results depend on the processing

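No member was called under any alternative, leaving out each rat in turn included. Of all 420 retained miRNAs, 0.00% were called in the main fit and 0.238% by DESeq2, and the share was not counted for the other alternatives. The absence of calls is therefore not particular to the members. The 4 ratios of a-cluster to b-cluster arms kept their direction and their call throughout. No paired analysis was possible because the groups share no replicate number. None of the values that changed sign was called in any fit, and the cause was not tested. Where a list served as a covariate, its value was the mean log2 CPM of its members, not their summed CPM. Log2 fold changes that turned were, with the muscle list as a covariate, 0.27 for miR-23a-3p, -0.029 for miR-23b-3p, -0.094 for miR-27a-3p, -0.057 for miR-27b-3p, -0.00040 for miR-24-1-5p, 0.099 for miR-24-2-5p and -0.20 for miR-27b-5p. Without the 4 libraries high in that list, an alternative added after seeing the data, they were 0.36 for miR-23a-3p, 0.25 for miR-24-2-5p and -0.20 for miR-27b-5p. With the choroid plexus list as a covariate they were 0.011 for miR-23a-3p and 0.021 for miR-24-2-5p, with the library total as a covariate 0.025 and 0.055, and with counts down-sampled to the smallest library 0.0054, 0.011 and, for miR-27b-5p, -0.089. With library totals alone they were -0.0019 for miR-23b-3p, -0.033 for miR-27a-3p, -0.021 for miR-27b-5p, -0.014 for the miR-23 sum and -0.0088 for the miR-27 sum. For miR-27a-3p the upper quartile gave -0.0066 and division by the library median -0.0055, which gave -0.067 for miR-27b-5p, as limma-trend and exact permutation gave -0.058. For miR-24-2-5p the stricter filter gave 0.018 and filterByExpr 0.0095. For the a-cluster sum, RLE size factors gave 0.0068 and edgeR on summed rows 0.0047.

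Over the fits without a single rat, the log2 fold change ran from -0.16 to 0.029 for miR-23a-3p, from -0.015 to 0.067 for miR-23b-3p, from -0.028 to 0.030 for miR-27a-3p, from -0.032 to 0.099 for miR-24-1-5p, from -0.090 to 0.039 for miR-24-2-5p and from -0.12 to 0.12 for miR-27b-5p. It ran from -0.0083 to 0.045 for the miR-23 sum, from -0.0016 to 0.060 for the miR-27 sum and from -0.029 to 0.025 for the a-cluster sum. The group difference in the log2 ratio of miR-24-2-5p to miR-24-1-5p ran from -0.13 to 0.021, that of miR-27b-3p to miR-27b-5p from -0.078 to 0.25, and that of miR-24-3p to its 5p arms from -0.031 to 0.11. With library totals alone, 3 in place of 1 of the guide pairs passed, and r of miR-23b-3p with miR-24-3p was 0.043. Within the 8 ethanol rats r was 0.0042 for miR-23a-3p with miR-24-3p and 0.018 for miR-23b-3p with miR-24-3p, and without the 2 farthest libraries r of miR-24-3p was -0.21 with miR-27a-3p and -0.35 with miR-27b-3p.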
